A study of Mus musculus with 7 samples.

Results

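The interleukin-1 (IL-1) family of cytokines was examined at the RNA level in mouse bone-marrow-derived macrophages (BMDMs), which are grown from bone marrow with the growth factor M-CSF. The 10 members were chosen by symbol: the agonists Il1a, Il1b, Il18, Il1f6 and Il1f9, the antagonists Il1rn and Il18bp, the decoy receptor Il1r2, and the receptor chains Il1r1 and Il1rap. All 10 were found among the 48440 genes of the LPS table and among the 55352 genes of the AAV table. In the LPS experiment, wild-type BMDMs were left without treatment (0 h) or were stimulated for 2 h or 4 h with 100 ng per mL of LPS, the endotoxin of Gram-negative bacteria, with 1 library per time point. In the AAV experiment, an adeno-associated virus (AAV) delivered Shisa3 or, in the controls, green fluorescent protein (GFP) to wild-type BMDMs over 48 h, with 2 samples per group. Shisa3 is the transmembrane protein whose role in macrophage polarization the study examined. The broadly active CAG promoter drove both transgenes, so the control cells were transduced as well. The labels name no LPS for the AAV samples and do not say whether the 2 samples of a group came from separate cultures or mice, so the p-values below measure only the spread between these samples.

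IL-1α (Il1a) and IL-1β (Il1b) bind the receptor IL1R1, which then recruits the accessory chain IL1RAP and signals through MyD88 and IRAK kinases to NF-κB. The receptor antagonist IL-1Ra (Il1rn) occupies IL1R1 without recruiting the accessory chain, and the decoy receptor IL1R2 captures the ligand without signalling. IL-18 is held in check by the soluble IL-18 binding protein (Il18bp), and IL-36α (Il1f6) and IL-36γ (Il1f9) signal through IL1RL2. Pro-IL-1β and pro-IL-18 are cut to their active forms by caspase-1 in inflammasomes, so the RNA levels given here are not levels of active cytokine.

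The recovered read totals of the LPS libraries were 15588502 without LPS, 7263258 after 2 h and 32659392 after 4 h, so low genes were least precise at 2 h. The values of the AAV table were read as TPM, which express a transcript as part of a constant sum and keep no read number, so their depth is unknown. Of the 8 macrophage markers, all 8 were above 1 TPM in the AAV samples, with a summed level of 34736 to 38318 TPM. Most of that sum was Lyz2, at 26378 to 29528 TPM. Cd14, the LPS co-receptor, was the 1 marker of the 8 called higher with AAV-Shisa3 (log2 fold change 0.78, adjusted p = 0.0153 from limma). The 4 T cell markers were listed at 0 in every AAV sample. Shisa3 itself stood at 7.88 and 10.85 TPM in the controls and reached 12.31 and 17.81 TPM after AAV-Shisa3, a difference that did not pass limma's test (Benjamini-Hochberg adjusted p = 0.138). In bulk RNA, fewer cells of a type and less RNA per cell cannot be told apart.

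The ligand genes lie in clusters on chromosome 2 of GRCm38. Il1b (ENSMUSG00000027398.13) spans 129364570 to 129371139 and Il1a (ENSMUSG00000027399.1) spans 129299610 to 129309972, both on the minus strand and 54.6 kb apart. Il1f9 (24186476 to 24193568), Il1f6 (24215418 to 24225702) and Il1rn (ENSMUSG00000026981.15, 24336853 to 24351494) form the other cluster on the plus strand. Il1r2 (40074079 to 40125231) and Il1r1 (40225080 to 40317257) are neighbours on chromosome 1, while Il18 lies on chromosome 9, Il18bp on chromosome 7 and Il1rap on chromosome 16. RefSeq promoters on GRCm38.p6 were found for 9 of the 10 members, in 12 windows, with none for Il1f6. The 250 bases before the start of the agonists Il1a and Il1b and of their antagonist Il1rn are shown because these 3 had the largest changes of the 10 members under LPS. All are written 5′ to 3′ on the gene's strand. Capitals mark matches, on either strand, to a form of the NF-κB site (GGGA, any 4 bases, then CC) or to a form of the C/EBP site (TTNNGNAAT). Il1rn is shown for the first of its 3 annotated starts and for its most downstream start.
Il1a, chr2:129309973-129310222, minus strand: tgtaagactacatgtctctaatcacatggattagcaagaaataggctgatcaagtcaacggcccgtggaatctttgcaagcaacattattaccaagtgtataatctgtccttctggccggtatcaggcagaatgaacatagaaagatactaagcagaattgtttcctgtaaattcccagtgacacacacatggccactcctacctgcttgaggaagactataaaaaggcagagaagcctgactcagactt
Il1b, chr2:129371140-129371389, minus strand: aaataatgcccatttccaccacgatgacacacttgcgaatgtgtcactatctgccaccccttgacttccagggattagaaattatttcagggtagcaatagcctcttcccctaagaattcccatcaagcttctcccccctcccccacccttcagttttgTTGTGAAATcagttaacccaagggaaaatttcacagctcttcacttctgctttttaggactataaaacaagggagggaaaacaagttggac
Il1rn, first start, chr2:24336610-24336859, plus strand: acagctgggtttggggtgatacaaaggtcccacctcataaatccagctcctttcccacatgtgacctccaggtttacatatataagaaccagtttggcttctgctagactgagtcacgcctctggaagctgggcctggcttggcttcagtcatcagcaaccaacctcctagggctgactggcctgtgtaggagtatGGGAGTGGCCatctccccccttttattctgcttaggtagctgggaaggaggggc
Il1rn, most downstream start, chr2:24345121-24345370, plus strand: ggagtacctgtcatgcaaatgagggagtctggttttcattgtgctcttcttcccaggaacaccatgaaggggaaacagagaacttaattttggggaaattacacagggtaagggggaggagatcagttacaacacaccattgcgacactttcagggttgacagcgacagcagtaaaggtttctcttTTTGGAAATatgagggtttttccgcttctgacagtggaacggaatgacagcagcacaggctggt
The Il1b window held 1 match to the C/EBP form, which began 91 bases before the start, and no match to the NF-κB form. The first Il1rn window held 1 match to the NF-κB form, 54 bases before the start, and the most downstream one held 1 match to the C/EBP form, 64 bases before the start. The Il1a window held no match. Over the 12 windows of the members, 2 held the NF-κB form, 4 held the C/EBP form and 0 held GAGGAAGT, a form of the PU.1 site. Among all 32851 RefSeq promoter windows of the same length, 17.6% held the NF-κB form, 10.2% the C/EBP form and 2.44% the PU.1 form. A match describes these letters and is not evidence of binding.

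The first question was how the family responded to LPS over time. Values are the authors' scaled read counts, which compare 1 gene between libraries. The agonist Il1b, the main secreted pyrogen of the family, had a scaled count of 52.7 before LPS (82 reads), which became 28065 by 2 h (12852 reads) and 25126 by 4 h (46238 reads). It was thus low before stimulation and high in both stimulated libraries, at 532-fold (95% counting interval 428 to 669) and 476-fold (384 to 599) of its level at 0 h. Between 2 h and 4 h it was 0.895-fold (0.878 to 0.913), a small step down. Il1a had a scaled count of 3.22 before LPS, from only 5 reads, then 1603 at 2 h and 1485 at 4 h. This made Il1a 498-fold higher at 2 h (213 to 1539) and 462-fold higher at 4 h (198 to 1423), with wide intervals because of the few reads at 0 h. Per exon length, Il1b stood at 18.1 and 17.5 times Il1a after 2 h and 4 h, and at 17.0 times before LPS, a ratio that rests on the 5 reads of Il1a. The intervals here and below cover counting error only, and with 1 library per time point no difference has a replicate check.

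Il1rn, the antagonist, followed another time course. Its scaled count was 116 before LPS (181 reads), then 10888 at 2 h (4986 reads) and 42946 at 4 h (79031 reads). Unlike Il1b, it was higher at 4 h than at 2 h, by 3.94-fold (3.83 to 4.06), and it stood 93.5-fold (80.6 to 109) and 369-fold (319 to 429) above 0 h. Among the 17854 genes with a mean scaled count of at least 1, the change at 4 h ranked 16 for Il1b, 20 for Il1rn and 21 for Il1a, counted from the largest increase. At 2 h the ranks were 5, 55 and 11. The agonists were thus near the top already at 2 h, and Il1rn reached their place at 4 h.

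The IL-36 ligands were lower than Il1a after LPS. Per exon length, Il1f9 had 133 and 127 scaled counts per kb at 2 h and 4 h and Il1f6 had 4.95 and 23.4, against 812 and 752 for Il1a. Il1f9 had a scaled count of 10.9 before LPS, then 218 at 2 h and 209 at 4 h, which made it 20.0-fold (11.9 to 35.6) and 19.1-fold (11.8 to 33.2) higher, and 0.958-fold (0.767 to 1.21) between 2 h and 4 h. With library totals Il1f9 was 12.6-fold and 10.8-fold above 0 h. No read of Il1f6 was recovered before LPS (0 reads), against 2 reads at 2 h and 38 at 4 h. Computed against a floor of 3 reads at 0 h, Il1f6 was at least 10.7-fold higher at 4 h, a bound that became 6.05-fold with library totals. No fold is given at 2 h, where it was at or under the floor in both libraries.

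Il18, which macrophages already express at rest, and its antagonist Il18bp both had their highest value at 4 h. Il18 had a scaled count of 134 before LPS, then 231 at 2 h and 882 at 4 h, and Il18bp had 129, 452 and 1162 in the same order. At 2 h Il18 was 1.73-fold (1.36 to 2.20) and Il18bp 3.51-fold (2.88 to 4.29) of the level at 0 h. With reads scaled to library totals these were 1.09-fold and 2.22-fold. By 4 h Il18 was 6.60-fold (5.71 to 7.66) and Il18bp 9.03-fold (7.81 to 10.5) of it, or 3.73-fold and 5.10-fold with library totals. Il18bp was thus ahead of Il18 at both times, and the interval of Il18 did not reach that of Il18bp at either.

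The 3 receptor genes had the smallest folds of the 10 members at 4 h. Il1rap, the shared accessory chain, had a scaled count of 172 before LPS, then 245 at 2 h and 584 at 4 h, or 3.39-fold (2.96 to 3.89) at 4 h and 1.91-fold with library totals. Il1r2, the decoy, had 7.72, 30.6 and 21.2, from 12, 14 and 39 reads, or 2.75-fold (1.41 to 5.76) at 4 h and 1.55-fold with library totals. Il1r1, the signalling chain, had 10.9, 21.8 and 11.4, from 17, 10 and 21 reads, and its intervals of 0.817 to 4.62 at 2 h and 0.524 to 2.11 at 4 h took in no change. Both IL-1 receptors were thus near the limit of what these libraries could measure, and Il1rap was the only receptor gene of the 3 with more than 100 reads in every library.

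**Figure D1:**
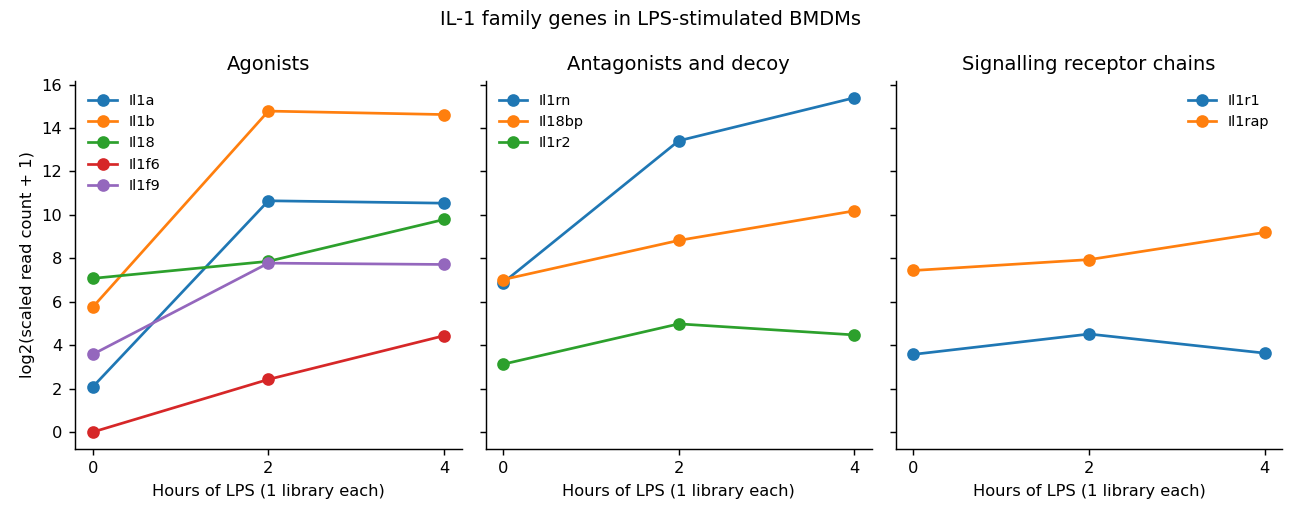
Each point is 1 library of BMDMs, with hours of LPS on the horizontal axis and log2(scaled read count + 1) on the vertical axis, in panels for agonists, for antagonists with the decoy receptor, and for the receptor chains. Il1a, Il1b and Il1f9 stood at 4 h at 0.895- to 0.958-fold of their value at 2 h, whereas Il1rn, Il18 and Il18bp were highest at 4 h.

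Counted together, 7 of the 10 members were higher by at least 2-fold at 2 h and 9 of 10 at 4 h on the log2(scaled count + 1) scale, and 0 were at least 2-fold lower at either time. The 7 at 2 h include Il1f6, whose 2 reads against 0 pass through the pseudocount of 1 and not with a pseudocount of 5, which gave 6. Over all 17854 genes, 20.5% were higher by at least 2-fold after 2 h and 22.2% after 4 h, and 24.7% and 23.6% were at least 2-fold lower. The members under 2-fold at 2 h were Il18, Il1r1 and Il1rap, and the one under 2-fold at 4 h was Il1r1. The median log2 change of the members was 2.14 at 2 h and 3.65 at 4 h, against -0.05 and -0.04 over all genes. From 2 h to 4 h, 5 members were at least 2-fold higher (Il1rn, Il18, Il18bp, Il1f6 and Il1rap) and 0 lower, where 17.9% of all genes were higher and 15.2% lower. Scaling the reads to library totals lowered the median change of all genes by 0.63 at 2 h and by 0.77 at 4 h, and 7 members, without Il1rap and Il1r2, passed 2-fold at 4 h, whereas centring the libraries raised that median by 0.31 and 0.37 and gave 9 members at both times. The shares over all genes were counted on the authors' scale only. With library totals the folds at 2 h and 4 h were 336 and 269 for Il1b, 315 and 261 for Il1a and 59.1 and 208 for Il1rn. With library totals Il1rap turned to -0.16 at 2 h and Il1r1 to -0.70 at 4 h, while the other members kept their direction.

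Ranks within a library allow the LPS and AAV tables, which were normalized separately, to be set side by side. The 20965 protein-coding genes in both tables were ranked per length in each library, using exon length for the LPS libraries and the authors' TPM for the AAV samples. Il1b ranked 7880 before LPS, then 32 at 2 h and 43 at 4 h. In AAV-GFP transduced BMDMs it ranked 1838 and 1131, and in AAV-Shisa3 transduced BMDMs it ranked 595 and 411. These 4 ranks lie between those of the resting and the stimulated libraries. Il1rn ranked 8487 before LPS, then 321 at 2 h and 78 at 4 h, and between 270 and 309 in all 4 AAV samples, with no separation of the AAV groups. Il1a moved from 7527 and 6682 with AAV-GFP to 4969 and 3531 with AAV-Shisa3, against 11211 at 0 h and 814 at 2 h. Il1r1 ranked between 10397 and 11925 in all 7 libraries. The LPS and AAV libraries came from different experiments, and the lengths behind the ranks differ between the tables, so the experiment, the lengths and the treatment cannot be told apart in ranks set across them.

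**Figure D2:**
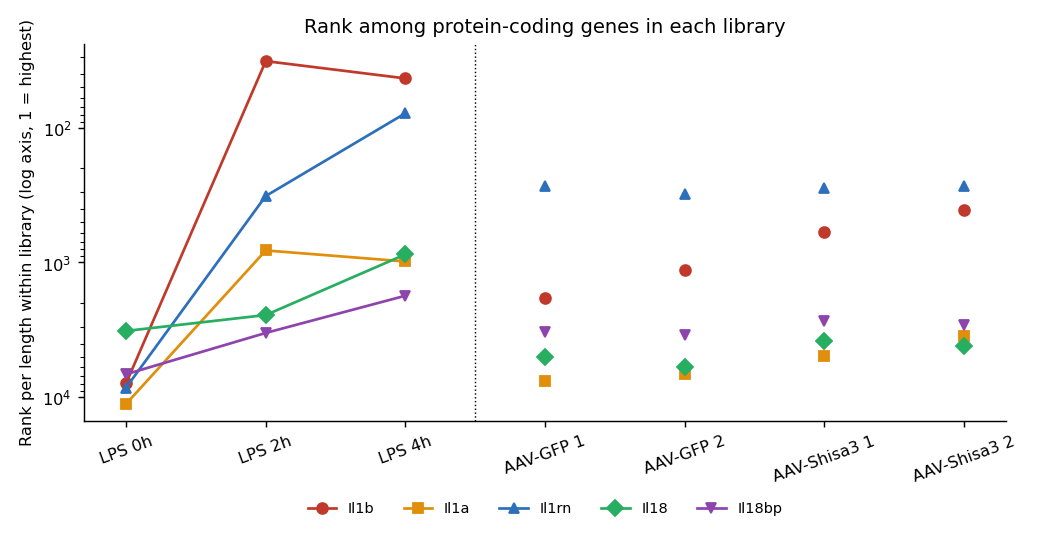
The vertical axis gives the rank per length among 20965 protein-coding genes in each of the 7 libraries on a log axis, with 1 as the highest expressed gene. Il1rn stayed between 270 and 309 in the 4 AAV samples, while Il1b moved from 1838 and 1131 with AAV-GFP to 595 and 411 with AAV-Shisa3.

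The second question was whether the family differed between BMDMs given AAV-Shisa3 and those given AAV-GFP, with the difference in Shisa3 RNA in these samples not past the test. Il1b stood at 76.3 and 130 TPM in the controls and at 255 and 388 TPM after transduction with AAV-Shisa3. Both AAV-Shisa3 replicates lay above both controls, although the controls themselves differed. Its log2 fold change was 1.65 (standard error 0.29, 95% interval 0.93 to 2.37, adjusted p = 0.0361 from limma), on the log2(TPM + 1) scale used for all fold changes of this experiment. For Il1f9 the controls had 3.64 and 3.30 TPM, and the AAV-Shisa3 samples 10.35 and 7.40 TPM. These groups were also separate, and the controls were close together. Il1f9 rose by 1.13 on the log2 scale (standard error 0.18, 95% interval 0.67 to 1.58, adjusted p = 0.0315 from limma).

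Il1a had 6.03 and 9.77 TPM in the controls and 17.13 and 31.10 TPM with AAV-Shisa3. The groups did not overlap, and the size of the difference was close to that of Il1b, with a log2 fold change of 1.47 (standard error 0.32, 95% interval 0.69 to 2.25), but it missed the threshold (adjusted p = 0.0544 from limma). It passed with samples centred on their medians (adjusted p = 0.0460 from limma) and with at least 1 TPM in every sample (0.0348). It did not pass in limma's test without the trend (adjusted p = 0.0966), with no filter on low values (0.208) or with a pseudocount of 0.1 (0.0520). With each sample left out, the log2 fold change of Il1a ranged from 1.06 to 1.88. Il1b was 12.7 and 13.3 times Il1a in the AAV-GFP samples and 14.9 and 12.5 times in the AAV-Shisa3 samples, so the proportion overlapped between the groups. Il18 had 18.37 and 13.04 TPM against 27.07 and 23.70 TPM, again without overlap, and its log2 fold change of 0.68 (95% interval 0.25 to 1.10) did not pass (adjusted p = 0.0766 from limma), and was 0.44 without AAV-GFP replicate 2. Il1f6 stayed under 1 TPM in every sample, at 0.46 and 0.50 with AAV-GFP and 0.64 and 0.11 with AAV-Shisa3, and was not tested.

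Neither antagonist passed limma's test. Il1rn was the most abundant member per length in every AAV sample, with 601 and 520 TPM in AAV-GFP and 589 and 604 TPM in AAV-Shisa3. The groups overlapped, and its log2 fold change of 0.09 (standard error 0.09, 95% interval -0.13 to 0.31, adjusted p = 0.529 from limma) had an interval that ended below that of Il1b. The sign of Il1rn turned to -0.01 without AAV-GFP replicate 2. Il18bp had 36.74 and 34.87 TPM against 46.02 and 41.33 TPM. These groups were separate, and the log2 fold change was 0.28 (95% interval 0.04 to 0.51, adjusted p = 0.133 from limma), which did not pass.

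The receptor genes were low. Il1rap had 3.12 and 4.44 TPM in the controls and 3.10 and 3.47 TPM with AAV-Shisa3, with overlapping groups and a log2 fold change of -0.15 (95% interval -0.62 to 0.33, adjusted p = 0.653 from limma), which turned to 0.055 without AAV-GFP replicate 2. Il1r1 had 0.16 and 0.30 TPM against 0.13 and 0.09 TPM, and Il1r2 had 0.19 and 0.39 TPM against 0.76 and 0.27 TPM. Both were under the mean of 1 TPM required for the test. The RNA of the ligand-binding receptor was thus near the bottom of the family in the same samples in which Il1rn was at the top.

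**Figure D3:**
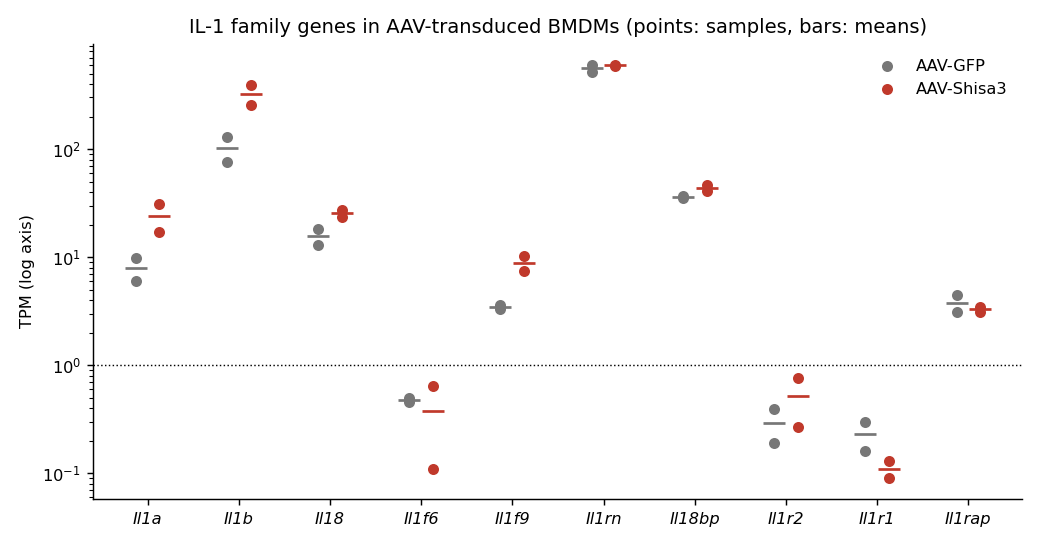
Points are single samples, bars are the means of 2 samples, the vertical axis is TPM on a log axis, and the dotted line marks 1 TPM. Il1a, Il1b, Il18, Il1f9 and Il18bp showed no overlap between AAV-GFP and AAV-Shisa3, with AAV-Shisa3 higher, whereas Il1rn overlapped at 520 to 604 TPM.

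Of the 10 members, 7 passed the filter on low values. Among these 7, Il1b and Il1f9 (2 of 7) passed limma's test as higher at an adjusted p under 0.05 and 0 passed as lower. Before adjustment, 5 were higher and 0 lower at p under 0.05. Over all 11218 genes tested, 2.23% were higher and 4.1% lower past the same threshold, and 8.21% and 19.8% did so before adjustment. Both AAV-Shisa3 samples were above both controls in 5 of the 7, against 18.2% of all genes tested, and below them in 0 of the 7, against 41.2%. The median log2 fold change was 0.68 for the 7 members and -0.10 for all genes tested. The 2 calls were lost in limma's test without the trend, with no filter on low values, and with any 1 of the 4 samples left out. With centring, or with at least 1 TPM in every sample, 3 members passed. The shares over all genes were not counted for these alternatives.

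Because IL-1Ra competes with IL-1α and IL-1β for IL1R1, the agonists were also set against Il1rn within each sample, which cancels the scaling of a library. In the AAV experiment the ratio of Il1a plus Il1b to Il1rn was 0.137 and 0.269 in AAV-GFP and 0.462 and 0.694 in AAV-Shisa3. Il1rn thus exceeded the summed agonists in all 4 samples, and the excess was smaller in both AAV-Shisa3 samples. The mean log2 ratio was -2.38 ± 0.69 (SD, n = 2) with AAV-GFP and -0.82 ± 0.42 (SD, n = 2) with AAV-Shisa3, a 2.95-fold difference. A two-sided exact permutation test gave p = 0.333, the smallest value that 2 samples against 2 allow. For Il18 over Il18bp the ratio was 0.500 and 0.374 in the controls and 0.588 and 0.573 with AAV-Shisa3, a 1.34-fold difference (exact permutation p = 0.333).

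In the LPS experiment the ratio of Il1a plus Il1b to Il1rn, per exon length, was 1.39 before LPS, then 7.89 at 2 h and 1.80 at 4 h. It was 5.67-fold higher at 2 h than at 0 h and had come back to 1.29-fold at 4 h. The absolute ratio depends on the lengths used, since without division by length it was 0.481, 2.72 and 0.620, but its folds over time did not (5.67 and 1.29 in both). Il18 over Il18bp took the opposite course, with a ratio of 3.05 before LPS, then 1.5 at 2 h and 2.23 at 4 h. The agonist side thus led at 2 h for IL-1, and the binding protein's share was largest at 2 h for IL-18.

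**Figure D4:**
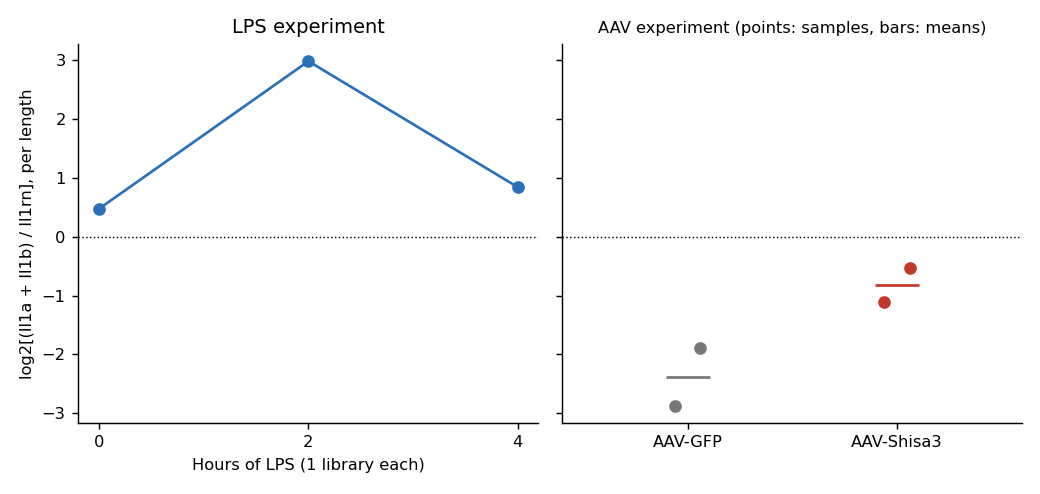
The vertical axis is the log2 ratio of Il1a plus Il1b to Il1rn, per length, for the 3 LPS libraries on the left and for the 4 AAV samples on the right, where bars are means of 2 samples. The ratio was highest at 2 h of LPS and was higher in both AAV-Shisa3 samples than in both AAV-GFP samples; levels are not comparable between the panels, because the lengths behind them differ.

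The genes around the family were taken from a list of 38 ligands, receptors, maturation and signalling genes, of which 37 were found in each table. In the AAV experiment 27 of them were tested, of which 2 passed limma's test as higher at an adjusted p under 0.05 and 0 as lower. Before adjustment, 6 were higher and 2 lower at p under 0.05. The shares over all genes tested were 2.23% and 4.1% after adjustment and 8.21% and 19.8% before it. With each sample centred on its median, 14 were higher and 0 lower before adjustment. Centring also raised the median of all genes tested, from -0.10 to 0.01, and the shares over all genes were not counted with it. Nlrp3, the inflammasome sensor, had 35.48 and 39.16 TPM in the controls and rose to 70.42 and 74.92 TPM, by 0.94 on the log2 scale (95% interval 0.72 to 1.17, adjusted p = 0.0168 from limma). Nfkbia, which encodes the NF-κB inhibitor IκBα, rose from 562 and 563 to 729 and 712 TPM (log2 fold change 0.36, 95% interval 0.20 to 0.52, adjusted p = 0.0382 from limma). These 2 calls were also lost without the trend, with no filter and with any 1 sample left out. Casp1, which encodes the protease that cuts pro-IL-1β, had 97.0 and 87.5 TPM against 102 and 87.3 TPM, with a log2 fold change of 0.03 (95% interval -0.23 to 0.29, adjusted p = 0.860 from limma). Pycard, the inflammasome adaptor, had 154 and 163 TPM against 139 and 127 TPM, a log2 fold change of -0.25 that did not pass (adjusted p = 0.118 from limma). The median of the 27 genes was 0.11, against -0.10 for all genes tested.

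Among the other receptors of the family, Il1rl2, the receptor of the IL-36 ligands, was the only one of 7 to pass the filter in the AAV samples. It had 1.98 and 1.6 TPM against 2.58 and 2.56 TPM, with a log2 fold change of 0.36 that did not pass (adjusted p = 0.247 from limma). The IL-18 receptor chains were at 0 to 0.05 TPM for Il18r1 and 0.19 to 0.73 TPM for Il18rap. Il33, Il36rn, Il36b, Il1f10, Il1rapl1 and Il1rapl2 were listed at 0 in all 4 samples. Il1rl1, the IL-33 receptor, stayed between 0 and 0.58 TPM, and Sigirr, an inhibitory receptor, had 0.37 and 0.54 TPM against 0.25 and 0.23 TPM.

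Under LPS, 31 of the listed genes had a mean scaled count of at least 1, and 15 of them were at least 2-fold higher and 2 lower after 2 h, then 17 higher and 4 lower after 4 h. Of all genes, 20.5% were higher and 24.7% lower after 2 h, and 22.2% and 23.6% after 4 h. With reads scaled to library totals, an alternative chosen for these genes after seeing the data, the counts were 13 and 3 after 2 h and 14 and 7 after 4 h. The shares over all genes were counted on the authors' scale only, and library totals shifted the median change of all genes by -0.63 and -0.77. The 3 with the largest increase at 4 h were Nfkbia at 24.6-fold, Casp4, the sensor of cytosolic LPS, at 20.5-fold, and Nfkbiz, an atypical IκB protein that acts in the nucleus, at 20.0-fold. With library totals these were 13.9-fold, 11.6-fold and 11.3-fold. Nlrp3 had a scaled count of 797 before LPS, then 9540 at 2 h and 6397 at 4 h, and Casp1 had 762, 2906 and 7249. Like Il1b, Nlrp3 was higher at 2 h than at 4 h, and like Il18, Casp1 was highest at 4 h. The largest decreases at 4 h were those of Sigirr, Il1rl1 and Tab1, a partner of the kinase TAK1. Sigirr had a scaled count of 62.4, 50.2 and 7.61, from 97, 23 and 14 reads. It was 8.20-fold lower at 4 h than at 0 h, which is 0.122-fold (0.0643 to 0.215), or 0.0689-fold with library totals. Il1rl1 had 27, 2.18 and 3.8, from 42, 1 and 7 reads, and Tab1 had 310, 26.2 and 86.9. Il1rl2 had 50.8, 43.7 and 19.6, while Il18rap, the accessory chain of the IL-18 receptor, had 32.2, 111 and 130. Il33, with 0, 7 and 19 reads, stood at least 7.92-fold (2 h) and 5.35-fold (4 h) higher against the floor of 3 reads, bounds that became 5.01-fold and 3.02-fold with library totals.

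**Figure D5:**
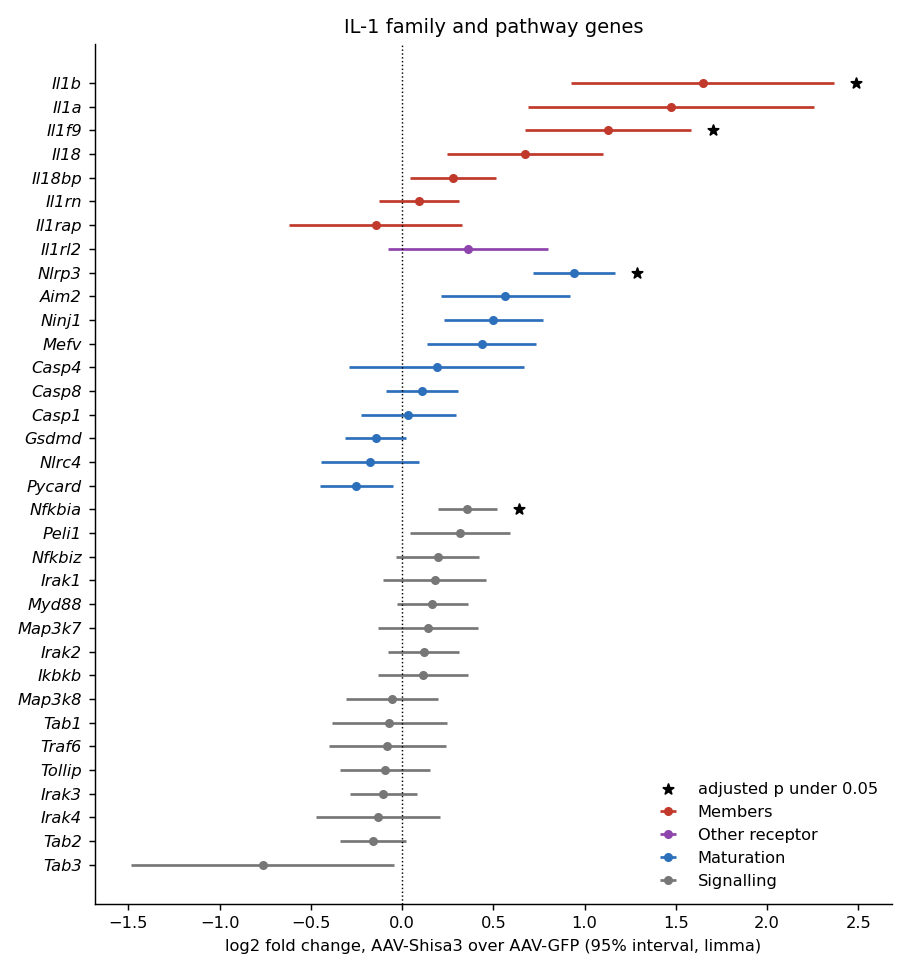
Points are log2 fold changes of AAV-Shisa3 over AAV-GFP on the log2(TPM + 1) scale with 95% intervals from limma, for the 7 members and the 27 other pathway genes tested. Stars mark the 4 genes with an adjusted p under 0.05, which were Il1b, Il1f9, Nlrp3 and Nfkbia.

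Neutrophils also express Il1b, Il1rn and Il1r2, so neutrophil markers are given beside these results. Of 8 markers, 7 had a mean of at least 1 TPM, and the summed level of the 8 was 545 and 514 TPM in AAV-GFP and 968 and 599 TPM in AAV-Shisa3. The defining marker Ly6g lay between 0.10 and 0.29 TPM, and 1 of the 7 tested markers, Camp, was higher past the threshold (log2 fold change 1.14, adjusted p = 0.0422 from limma). Retnlg reached that mean only through the AAV-Shisa3 samples (0.21 and 0.69 TPM with AAV-GFP). The log2 fold changes of the other 6 tested markers ran from 0.34 to 1.14. The marker sum, most of it S100a8 and S100a9, was highest in AAV-Shisa3 replicate 1, as were, of the tested members, Il1f9, Il18 and Il18bp. Camp (40.19 TPM, against 24.74 TPM in replicate 2), Ltf (28.46 and 19.22 TPM) and Retnlg (2.03 and 1.24 TPM) were also highest in that sample. Mpo (1.82 and 3.34 TPM) and Elane (3.42 and 4.25 TPM) were highest in replicate 2, as were Il1a, Il1b and Il1rn. In the LPS libraries the summed scaled count of the neutrophil markers was 3932 before LPS, then 8001 at 2 h and 5731 at 4 h, from 6112, 3664 and 10547 reads. The neutrophil sum was thus highest in the library with the highest Il1b. Its course was not computed with library totals, which give smaller increases from 0 h than the scaled counts. The 4 dendritic cell markers summed to 34.7, 118 and 279 in the same order, from 54, 54 and 513 reads, and were thus highest at 4 h, as were Il1rn, Il18 and Il18bp. Which of the 4 genes made up this sum is not given here. In the AAV samples only Ccr7, at 1.62 to 3.04 TPM, had a mean of at least 1 TPM. The part of neutrophils or dendritic cells in the differences was not tested. Markers of other cells were low in the AAV samples, with summed levels of 9.42 to 16.4 TPM for 6 fibroblast markers, 2.48 to 3.59 TPM for 4 dendritic cell markers, 8.05 to 13.7 TPM for 4 B cell markers and 0.12 to 0.64 TPM for 4 mast cell or basophil markers.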

How the data were processed

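RNA-seq came from 7 samples of BMDMs, grouped by the labels. For the LPS table the authors deposited a signal per gene, inferred to be a read count over a library factor, since 100% of values fell on whole multiples of a single step (tolerance 0.02 reads). For the AAV table the values deposited by the authors, which sum to 999778 to 999818 per sample, were read as TPM. The submitters' processing notes name the build mm9; the aligner, annotation and counting strand are not given in the sources used here. Positions and exon lengths (the union of a gene's exons) came from GENCODE M21 on GRCm38, which held 99.2% of the LPS identifiers, and promoters from RefSeq.

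AAV values were compared on the log2(TPM + 1) scale, which understates differences of low genes, using limma with a trend, for the 11218 genes whose mean reached 1 TPM. P-values were adjusted over all of these by Benjamini-Hochberg (threshold 0.05), and the script was tested on simulated data. LPS libraries were compared without a test. Folds are ratios of scaled counts with exact 95% binomial intervals, against a floor of 3 reads where a library had 0. Log2 changes used a pseudocount of 1 and genes whose mean reached 1. The text names all members, pathway genes past the AAV threshold, the 3 pathway genes most raised and the 3 most lowered by 4 h of LPS, the family's other ligands and receptors, and the 3 genes nearest in pattern to Il1a, Il1b and Il1rn, by the larger absolute difference of their log2 changes at 2 h and 4 h. Casp1, Pycard and the marker genes were added after their values were seen. Members, lists and tests were chosen with earlier results of these data known. Alternatives were the trend, centring, filters, pseudocounts of 0.1 and 5, a replicate block, leaving out each sample, library totals and TMM factors from edgeR. Versions were R 4.3.3, edgeR 4.0.16, limma 3.58.1, matplotlib 3.10.9, scipy 1.17.1, pandas 2.3.3, numpy 2.4.6 and Python 3.11.15.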

Additional observations from a re-analysis of the deposited data

How the results depend on the processing

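The 2 members called higher with AAV-Shisa3 became 0 in limma's test without the trend, 0 with no filter on low values, and 0 to 0 with each sample left out, where a lone sample is assumed to vary like the other group; with the replicate number as a block they became 4. The 2 higher pathway genes became 0 without the trend, 0 with no filter, 4 with each sample centred on its median, 4 with the replicate block, and 0 to 0 with each sample left out. The causes were not tested, and the shares over all genes were counted only with the settings used in the results above. Under the replicate block Il1a (adjusted p = 0.00967 from limma) and Il18 (0.0273) also passed. The deviations of same-numbered samples from their group means correlated at 0.19 across 11218 genes, over 2 pairs only, so the block is not taken as a pairing. Il1a also passed with centring (adjusted p = 0.0460 from limma) and with at least 1 TPM in every sample (0.0348). It did not pass without the trend (adjusted p = 0.0966 from limma), with no filter (0.208) or with a pseudocount of 0.1 (0.0520). The adjusted p of Il1b ranged from 0.00689 to 0.178 over the alternatives, and that of Il1f9 from 0.0193 to 0.196. Without AAV-GFP replicate 2, the log2 fold change of Il1rn turned to -0.011 and that of Il1rap to 0.055; with each sample left out they ranged from -0.011 to 0.198 and from -0.346 to 0.055. With each sample left out, the change of the agonist to antagonist ratio lay between 1.07 and 2.05 on the log2 scale. Centring moved the median of all AAV genes from -0.10 to 0.01. For LPS, the counts of members past 2-fold stayed within 1.5 times of those given, at 6 to 9 at 2 h and 7 to 9 at 4 h. The pathway genes at least 2-fold lower at 4 h of LPS went from 4 to 7 with library totals, an alternative chosen after seeing the data, and their other counts stayed within 1.5 times. Depth limits Il1f6, Il1r1 and Il1r2.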

Other observations

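The genes whose pair of log2 changes at 2 h and 4 h lay nearest to that of a member, over 3 libraries and 15765 genes with more than 3 reads at 0 h, differed between agonists and antagonist. For Il1a they were Il27, Ccl4 and Dusp2, with Il27 at 8.61 and 8.40 against 8.57 and 8.46 for Il1a. For Il1b the nearest was Il1a, followed by Il27 and Steap4. For Il1rn they were Cxcl9, Upp1 and Ifi205, with Cxcl9 at 6.62 and 8.54 against 6.53 and 8.51 for Il1rn. With 1 library per time point these likenesses are descriptions of 3 libraries.

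Some members overlap other genes. Il1bos, an antisense gene that shares 25 exon bases with Il1b, had a scaled count of 0 before LPS, then 43.7 at 2 h and 9.24 at 4 h. These values came from 0, 20 and 17 reads, and Il1bos had at most 0.10 TPM in the AAV samples. Gm14023 shares 222 exon bases with Il1a and had at most 3 reads in any LPS library, and Gm20319 shares 552 exon bases with Il1rap and had 0 reads in all of them. Numa1 shares 80 exon bases with Il18bp and had a scaled count of 3815 before LPS, then 2989 at 2 h and 1961 at 4 h, the opposite direction to Il18bp. The use of strand in the counting is not given in the sources used here, so reads of the shared bases cannot be assigned to 1 gene.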
